A study of Mus musculus with 33 samples.

Results

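The clock output factors described here are 7 genes of 21565 measured in mouse frontal cortex: Dbp, Tef, Hlf, Nfil3, Ciart, Bhlhe40 and Bhlhe41. They were taken by gene symbol, each symbol matched 1 row of the table, and no measured value entered the rule, although earlier results of these data were known when the genes were chosen. Polyadenylated RNA was sequenced from 33 adult male mice on a C57BL/6J background, all killed at zeitgeber time (ZT) 6. The study counts ZT in hours from lights on. Its methods also state that, for RNA-seq, mice were placed in constant darkness (a dark/dark schedule) before the experimental day. All sleep states shared this condition, so its part in the levels of these genes was not tested. Wild-type (WT) mice either slept freely (control sleep, CS, n = 6), were kept awake for 6 h on a slowly moving treadmill (sleep deprivation, SD, n = 7), or were kept awake for 4 h and then allowed 2 h of recovery sleep (RS, n = 7). Mef2c f/f mice, which carry loxP sites around an exon of the transcription factor gene Mef2c, were studied in CS (n = 4) and SD (n = 3). Mef2c-cKO mice carry the same floxed alleles and a Camk2a-Cre transgene, which acts in excitatory neurons of the forebrain, and were also studied in CS (n = 3) and SD (n = 3). The study's methods state that some Mef2c-cKO mice had recombination outside the brain as well, so these animals may also lack 1 allele in other cells. No RS group was analysed here for the last 2 genotypes.

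All 7 genes encode transcriptional regulators that link the circadian oscillator to the genes it drives. In that oscillator, BMAL1 (encoded by Arntl) and CLOCK bind E-boxes and switch on the Per and Cry repressors, the REV-ERB receptors and several of the output factors. DBP, TEF and HLF are the PAR bZIP activators, which bind D-boxes in the promoters of clock and metabolic genes, and NFIL3 (E4BP4) binds the same D-boxes as a repressor. CIART (CHRONO) represses CLOCK and BMAL1 by binding to BMAL1, while BHLHE40 (DEC1) and BHLHE41 (DEC2) are basic helix-loop-helix repressors that compete for E-boxes. Dbp is known for a strong daily rhythm in many tissues and for being altered by sleep loss in mouse cortex, and BHLHE41 for a human variant associated with short sleep.

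Promoter sequence was examined first. RefSeq start-site windows on GRCm38.p6, from 250 bases before to 50 bases after the start, were found for 6 of the 7 genes (7 windows, since Tef has 2 starts). Each window was searched on both strands for the E-box CACGTG, the variant CACGTT, the D-box TTANGTAA and the CRE TGACGTCA, none of which overlapped another in these windows. An E-box was present in 7.15% of all 32851 windows of this length, and 3 or more E-boxes in 0.0883%. Ciart had 3, at 116, 58 and 44 bases upstream of the start. Both Tef windows held 1, at 127 and 138 bases upstream, and Bhlhe41 held 1 at 153 bases upstream. Hlf held no E-box but a CRE at 9 bases upstream, a motif found in 1.79% of windows. The windows of Dbp and Nfil3 held none of these letters, and no window held a D-box (2.32% of all windows) or CACGTT (4.69%). The windows that hold a motif are shown because they separate Ciart from the rest, 5′ to 3′ on the gene's strand, with motifs in capitals.
Ciart, chr3:95882179-95882478, minus strand: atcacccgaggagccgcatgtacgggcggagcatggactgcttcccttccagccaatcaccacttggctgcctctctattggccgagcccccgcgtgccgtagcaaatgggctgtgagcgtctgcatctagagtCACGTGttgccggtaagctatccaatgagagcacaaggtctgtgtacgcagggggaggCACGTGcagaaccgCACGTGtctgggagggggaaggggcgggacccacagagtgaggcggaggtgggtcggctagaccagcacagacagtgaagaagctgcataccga
Tef, first start, chr15:81802423-81802722, plus strand: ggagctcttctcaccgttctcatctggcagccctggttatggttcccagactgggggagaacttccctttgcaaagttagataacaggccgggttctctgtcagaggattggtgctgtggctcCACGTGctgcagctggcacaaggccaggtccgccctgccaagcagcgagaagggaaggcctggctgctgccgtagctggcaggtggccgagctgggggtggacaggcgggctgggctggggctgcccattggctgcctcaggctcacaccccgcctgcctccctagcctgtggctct
Tef, second start, chr15:81811164-81811463, plus strand: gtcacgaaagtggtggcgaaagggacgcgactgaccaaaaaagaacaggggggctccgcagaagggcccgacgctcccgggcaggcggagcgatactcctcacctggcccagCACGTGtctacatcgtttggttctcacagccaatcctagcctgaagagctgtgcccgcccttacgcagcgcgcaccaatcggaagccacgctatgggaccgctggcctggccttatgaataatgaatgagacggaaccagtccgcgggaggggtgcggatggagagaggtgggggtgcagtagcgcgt
Bhlhe41, chr6:145865371-145865670, minus strand: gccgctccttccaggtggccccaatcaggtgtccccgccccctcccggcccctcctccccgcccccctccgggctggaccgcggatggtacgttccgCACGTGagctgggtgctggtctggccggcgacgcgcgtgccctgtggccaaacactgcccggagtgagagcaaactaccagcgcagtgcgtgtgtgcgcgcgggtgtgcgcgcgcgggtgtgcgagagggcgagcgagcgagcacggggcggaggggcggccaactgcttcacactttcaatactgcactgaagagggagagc
Hlf, chr11:90390868-90391167, minus strand: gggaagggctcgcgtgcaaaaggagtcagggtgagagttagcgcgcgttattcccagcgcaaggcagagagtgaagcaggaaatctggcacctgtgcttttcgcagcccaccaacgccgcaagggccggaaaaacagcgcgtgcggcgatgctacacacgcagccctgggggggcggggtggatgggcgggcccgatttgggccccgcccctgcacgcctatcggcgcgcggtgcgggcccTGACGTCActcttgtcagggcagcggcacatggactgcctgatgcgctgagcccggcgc
A match here is a match of letters and was not tested for binding.

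The genes themselves lie on 6 chromosomes (GRCm38, GENCODE M21). Dbp is at chr7:45705088-45710203 on the plus strand and Tef at chr15:81802421-81826863 on the plus strand. Hlf is at chr11:90336536-90390895, Nfil3 at chr13:52967209-52981073 and Ciart at chr3:95878503-95882251, all on the minus strand. Bhlhe40, at chr6:108660629-108666925 on the plus strand, and Bhlhe41, at chr6:145858243-145865558 on the minus strand, share a chromosome. Their longest transcripts differ in base composition, from 45.1% GC in Hlf to 61.6% in Dbp, which bears on the WT comparisons below.

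The deposited values are CPM, read counts scaled to a library total of 1000000. Libraries held 18935045 to 249046089 reads in all, and even the least covered member, Nfil3, had 94 to 1248 reads per library. Levels are given as CPM rescaled so that the bulk of genes matched between libraries. The deposited CPM of WT libraries sum to less than 1000000 over listed genes, unlike those of the other genotypes. Levels are therefore not tested between WT and the other genotypes. In bulk tissue, fewer cells of a type and less RNA per cell cannot be told apart. Markers of excitatory cortical neurons were present in every library (1188 to 1941 rescaled CPM summed over 5 of 5 genes). A few libraries stood apart from their groups. WT CS replicate 2 had the lowest median Spearman rho across genes with its own group (0.950) and the smallest scale factor (0.717). Mef2c-cKO CS replicate 8 had an astrocyte marker sum of 2337, against 714 and 755 in the other two of its group, and a microglia sum of 419, against 159 and 189. Mef2c-cKO CS replicate 5 and WT CS replicate 1 had choroid plexus marker sums of 310 and 184, and Mef2c-cKO SD replicate 6 was the highest or lowest library of its group for 6 members. The main values that moved when they were left out are also given without them. The gene-level Mef2c count, which spans all exons, was not lower in Mef2c-cKO than in Mef2c f/f (log2 fold change 0.27 in CS, adjusted p = 0.382, and 0.05 in SD, adjusted p = 0.820), so it does not check the exon deletion.

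Per kilobase of transcript, Tef was the most abundant member in all 7 groups, with group means from 47.3 to 62.3 rescaled CPM per kb. Dbp, Hlf and Bhlhe40 formed a middle tier, between 14.5 and 28.9. Bhlhe41 (4.34 to 5.40), Ciart (3.09 to 6.83) and Nfil3 (2.55 to 4.43) were the least abundant. Nfil3 was the lowest member in 6 groups and Ciart in Mef2c-cKO SD. The summed activators exceeded Nfil3 in every library on this scale.

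**Figure D1:**
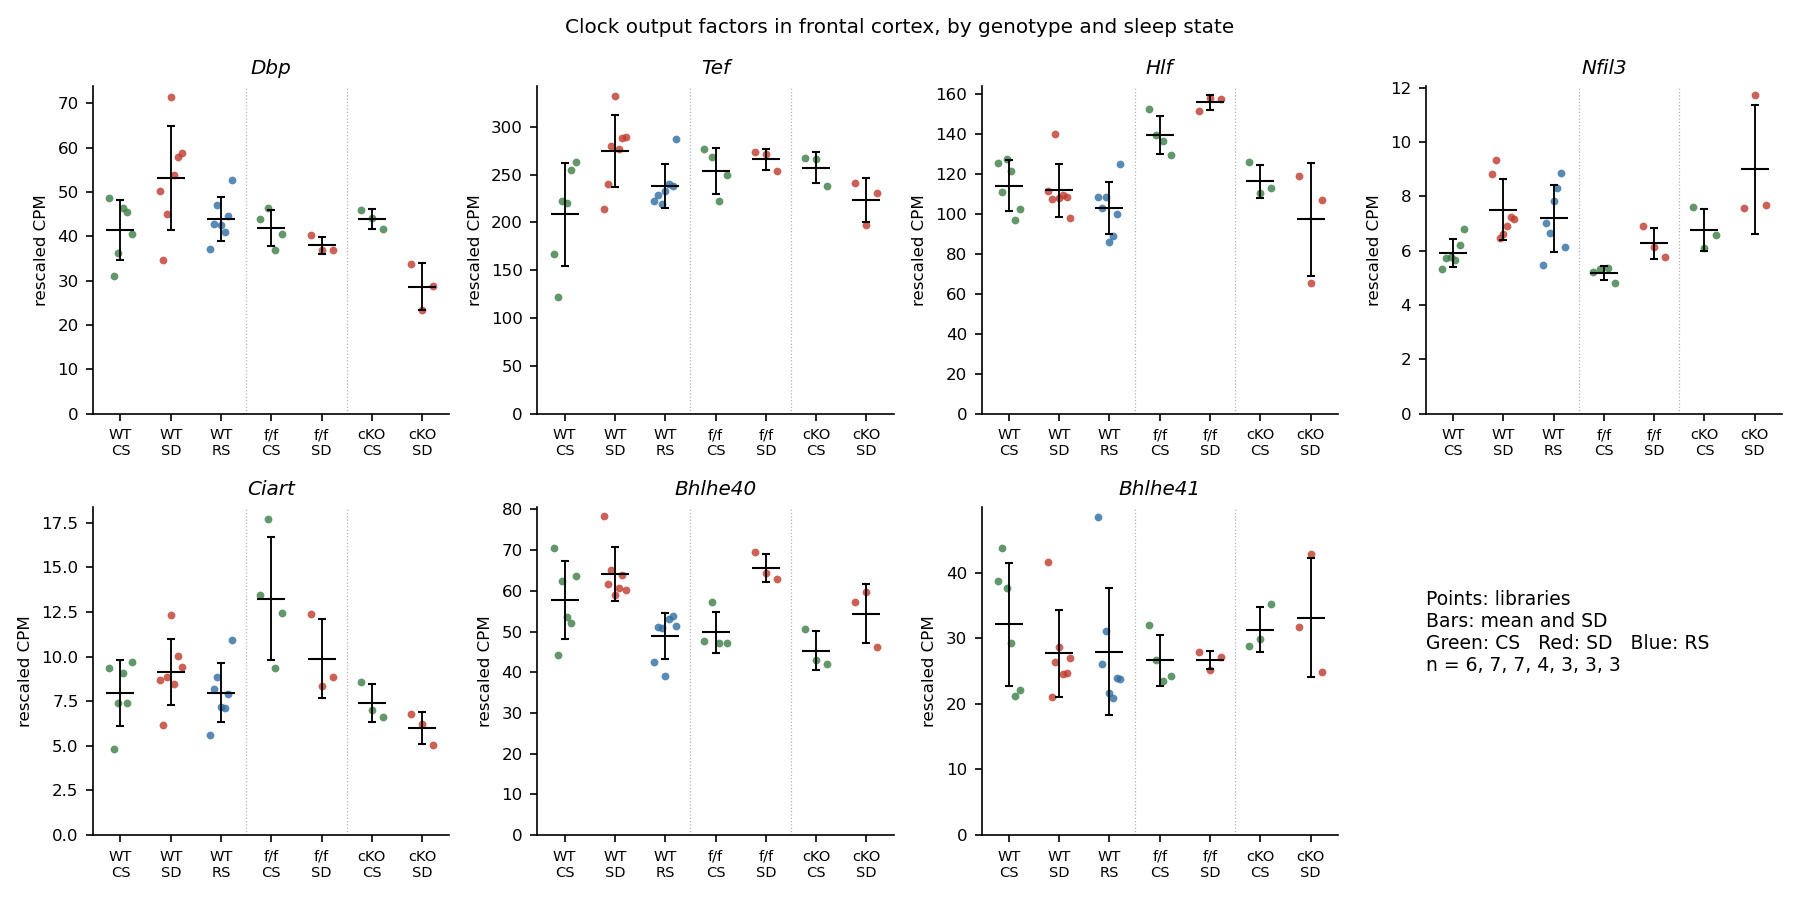
Rescaled CPM of each of the 7 genes (y axis, starting at 0) in the 7 groups (x axis; f/f is Mef2c f/f, cKO is Mef2c-cKO). Points are libraries and bars are the mean and SD. Tef is higher on average in WT SD (274) than in WT CS (208), Ciart is lower in Mef2c-cKO than in Mef2c f/f in both sleep states, and Dbp is lowest in Mef2c-cKO SD (28.6).

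A gene was called a DEG when limma's adjusted p was at most 0.05 and the log2 fold change, computed on log2(rescaled CPM + 0.5), was at least 0.3 in size. In WT mice, CS to SD called 2 of the 7 members, Tef and Nfil3, both higher, where 45.1% of all 12913 genes tested were called and 24.6% were called higher. The median log2 fold change of the 7 members was 0.20, against 0.04 over all genes. WT CS to RS called no member (17.5% of all genes), with 1 member at an unadjusted p under 0.05 (46.4% of all genes), and 0 in both edgeR and DESeq2 on recovered reads. WT SD to RS called no member (0.0232% of all genes, 3 of 12921). In that comparison all 7 members had a log2 fold change below 0 (median -0.18, against -0.0047 over all genes), 2 had an unadjusted p under 0.05 (5.29% of all genes), and edgeR called 0 and DESeq2 1. Bhlhe41 was only at -0.01, and reached 0.09 with a single library left out. The other members stayed below 0 under every alternative setting, with Nfil3 reaching -0.006. Across genes, log2 fold changes from WT SD to RS tended to fall as GC content rose. In Mef2c f/f mice CS to SD called no member (0.0403% of all genes, 5 of 12410), with 2 at an unadjusted p under 0.05 (17% of all genes), 0 in edgeR and 1 in DESeq2. In Mef2c-cKO mice CS to SD called no member either (0.0234%, 3 of 12810), with 1 at an unadjusted p under 0.05 (3.05% of all genes), 0 in edgeR and 1 in DESeq2. Between genotypes, Mef2c-cKO against Mef2c f/f called 1 member in CS (Ciart, lower, where 7.67% of all genes were called and 4.5% called lower) and 2 members in SD (Hlf and Ciart, lower, where 15.1% were called and 5.99% called lower).

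**Figure D2:**
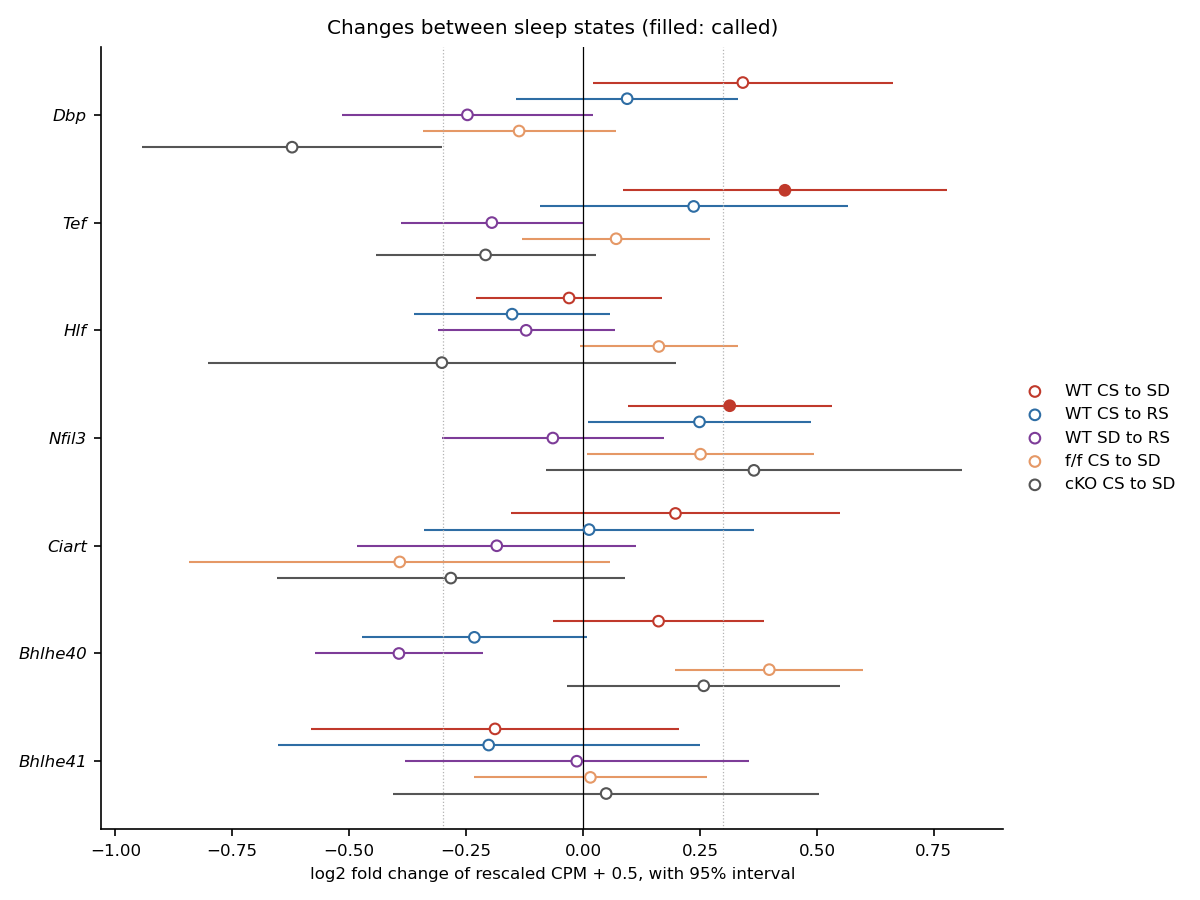
Log2 fold change of rescaled CPM + 0.5 (x axis) with its 95% interval for each gene (y axis) in 5 comparisons of sleep states, coloured by comparison. Filled circles are DEGs and dotted lines mark the fold threshold; the filled circles are Tef and Nfil3 in WT CS to SD, and the interval of Bhlhe40 in WT SD to RS (-0.57 to -0.21) lies below 0.

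The first of the PAR bZIP activators, Tef, was called higher after sleep deprivation in WT mice, where 24.6% of all genes tested were. Tef was at 122, 222 and 263 rescaled CPM in CS (lowest, median and highest library), at 214, 280 and 332 in SD and at 219, 233 and 288 in RS. The groups overlapped, and the lowest CS libraries were replicates 2 (122) and 1 (167). The log2 fold change from CS to SD was 0.43 (SE 0.16, adjusted p = 0.0387). The call was lost without WT CS replicate 2 (log2 fold change 0.29, adjusted p = 0.0703), and without WT CS replicate 1 or any of WT SD replicates 3, 4, 6, 8 and 9 (log2 fold change 0.38 to 0.43, adjusted p 0.0549 to 0.0841). From CS to RS the difference was 0.24 (SE 0.15, adjusted p = 0.227), and 0.09 without WT CS replicate 2. In Mef2c f/f mice Tef was at 276, 268, 222 and 250 in CS and at 274, 271 and 253 in SD, overlapping ranges with a log2 fold change of 0.07 (SE 0.09, adjusted p = 0.707). In Mef2c-cKO mice it was at 267, 267 and 238 in CS and at 242, 197 and 231 in SD, with a log2 fold change of -0.21 (SE 0.10, adjusted p = 0.998), or -0.12 without Mef2c-cKO SD replicate 6. The difference between the Mef2c f/f and WT responses to SD was -0.36 (SE 0.24, adjusted p = 0.255), which did not pass the test, and -0.22 without WT CS replicate 2.

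On rescaled CPM, Dbp, the best studied of the PAR bZIP activators, had CS to SD log2 fold changes of both signs among the 3 genotypes. None of them passed the test. Across the alternative settings the WT value ran from -0.32 to 0.61, so the difference in sign was not stable. The lowest WT value came from libraries adjusted for base composition. The Mef2c f/f values (-0.20 to -0.09) and the Mef2c-cKO values (-0.75 to -0.48) stayed below 0. In WT mice Dbp was at 31, 43 and 48.8 rescaled CPM in CS, at 34.6, 53.9 and 71.5 in SD and at 37.2, 42.8 and 52.8 in RS. Of the 7 SD libraries, 5 were above the highest CS library, and replicate 2 of SD, at 34.6, was among the lowest. The log2 fold change from CS to SD was 0.34 (SE 0.15, adjusted p = 0.0683). Without WT SD replicate 2 it was 0.44 (adjusted p = 0.0193), without WT CS replicate 1 it was 0.39 (adjusted p = 0.0585), and without WT CS replicate 2 it was 0.26 (adjusted p = 0.150). In Mef2c f/f mice Dbp was at 44, 46.4, 36.9 and 40.4 in CS and at 40.2, 36.9 and 36.8 in SD, a log2 fold change of -0.14 (SE 0.09, adjusted p = 0.462). In Mef2c-cKO mice it was at 46.0, 44.1 and 41.5 in CS and at 33.7, 23.3 and 28.9 in SD. Here every SD library was below every CS library, as for 4.56% of all genes tested. The log2 fold change was -0.62 (SE 0.14), with an adjusted p of 0.998 in limma and 0.0443 in DESeq2 on recovered reads (where 0.0234% of all genes were called lower), and without Mef2c-cKO SD replicate 6 it was -0.48. The summed endothelial markers did not overlap between these groups either (65.2 to 77.2 rescaled CPM in CS and 77.6 to 82.1 in SD), and their part in this was not tested. The response of Mef2c-cKO minus that of Mef2c f/f was -0.49 (SE 0.17, adjusted p = 0.596), and the response of Mef2c f/f minus that of WT was -0.48 (SE 0.23, adjusted p = 0.120). Neither difference of responses passed the test. Over the alternative settings the Mef2c f/f minus WT value ran from -0.74 to 0.21, so its sign was not stable. Across genes, that difference of responses had a Spearman rho of -0.756 with GC content.

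Hlf, the PAR bZIP factor with the CRE shown above, passed the test between genotypes in SD and in no comparison of sleep states. It was at 96.8, 116 and 128 rescaled CPM in WT CS, at 98.1, 108 and 140 in SD and at 85.9, 103 and 125 in RS, and its log2 fold changes were -0.03 (SE 0.09) from CS to SD and -0.15 (SE 0.10) from CS to RS. In Mef2c f/f mice Hlf was at 152, 140, 136 and 129 in CS and at 152, 158 and 158 in SD (log2 fold change 0.16, SE 0.08, adjusted p = 0.313). Mef2c-cKO mice had 126, 110 and 113 in CS and 119, 65.4 and 107 in SD (log2 fold change -0.30, SE 0.21, adjusted p = 0.998), with replicate 6 far below the other two and a log2 fold change of -0.04 without it. Against Mef2c f/f, Hlf was lower in Mef2c-cKO SD by a log2 fold change of -0.72 (SE 0.19, adjusted p = 0.0358), and every Mef2c-cKO library was below every Mef2c f/f library, as for 18.7% of all genes tested. Without Mef2c-cKO SD replicate 6 the difference was -0.46 and the call was kept (adjusted p = 0.0011). It was lost without Mef2c-cKO SD replicate 7 (-0.82, adjusted p = 0.0501) and without Mef2c f/f SD replicate 1, 2 or 3 (-0.74 to -0.71, adjusted p 0.0951 to 0.113). Without the filter on low values the call was lost too. In CS the difference was -0.26 (SE 0.09, adjusted p = 0.10), and the ranges did not overlap there either, as for 13.5% of all genes in that direction.

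Nfil3, the repressor at D-boxes, was the second member called higher after sleep deprivation in WT mice, where 24.6% of all genes tested were. It was at 5.32, 5.75 and 6.78 rescaled CPM in WT CS, at 6.47, 7.18 and 9.33 in SD and at 5.45, 7.03 and 8.86 in RS. The CS and SD ranges overlapped at the highest CS library. The log2 fold change was 0.31 (SE 0.10, adjusted p = 0.0217) from CS to SD and 0.25 (SE 0.11, adjusted p = 0.0976) from CS to RS. The first stood just above the fold threshold, and fell below it without WT CS replicate 1 (0.29), WT SD replicate 1 (0.28) or WT SD replicate 2 (0.26), while the second passed both thresholds without WT RS replicate 1 (0.31, adjusted p = 0.0417). In Mef2c f/f mice Nfil3 was at 5.22, 5.32, 5.35 and 4.81 in CS and at 6.89, 6.13 and 5.77 in SD. Every SD library was above every CS library, as for 8.53% of all genes tested, with a log2 fold change of 0.25 (SE 0.11, adjusted p = 0.282). In Mef2c-cKO mice the values were 7.61, 6.08 and 6.56 in CS and 7.56, 11.7 and 7.68 in SD (log2 fold change 0.37, SE 0.19, adjusted p = 0.998), where replicate 6 held the highest level of any library and the log2 fold change was 0.17 without it. Mef2c-cKO exceeded Mef2c f/f by a log2 fold change of 0.35 in CS (SE 0.13, adjusted p = 0.118) and 0.46 in SD (SE 0.17, adjusted p = 0.0923), with no overlap in either state, as for 13.4% and 21.6% of all genes in that direction, but neither was called. The SD value was 0.27 (adjusted p = 0.112) without Mef2c-cKO SD replicate 6.

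Because activators and repressor compete at the same element, the ratio of Dbp, Tef and Hlf together to Nfil3 was computed per library from CPM per kb, which frees it from the scaling between libraries. The ratio was 30.9 ± 4.33 (SD, n = 6) in WT CS, 30.9 ± 7.35 (n = 7) in WT SD and 28.0 ± 6.13 (n = 7) in WT RS. These groups overlapped widely. It was 41.3 ± 3.72 (n = 4) in Mef2c f/f CS and 35.3 ± 2.34 (n = 3) in Mef2c f/f SD. In Mef2c-cKO mice it was 31.1 ± 3.17 (n = 3) in CS and 20.1 ± 7.14 (n = 3) in SD, where the 3 libraries were at 11.9, 23.0 and 25.3. The Mef2c-cKO SD libraries were below all those of the other three groups of these genotypes. The ratio compares RNA levels and was given no test.

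**Figure D3:**
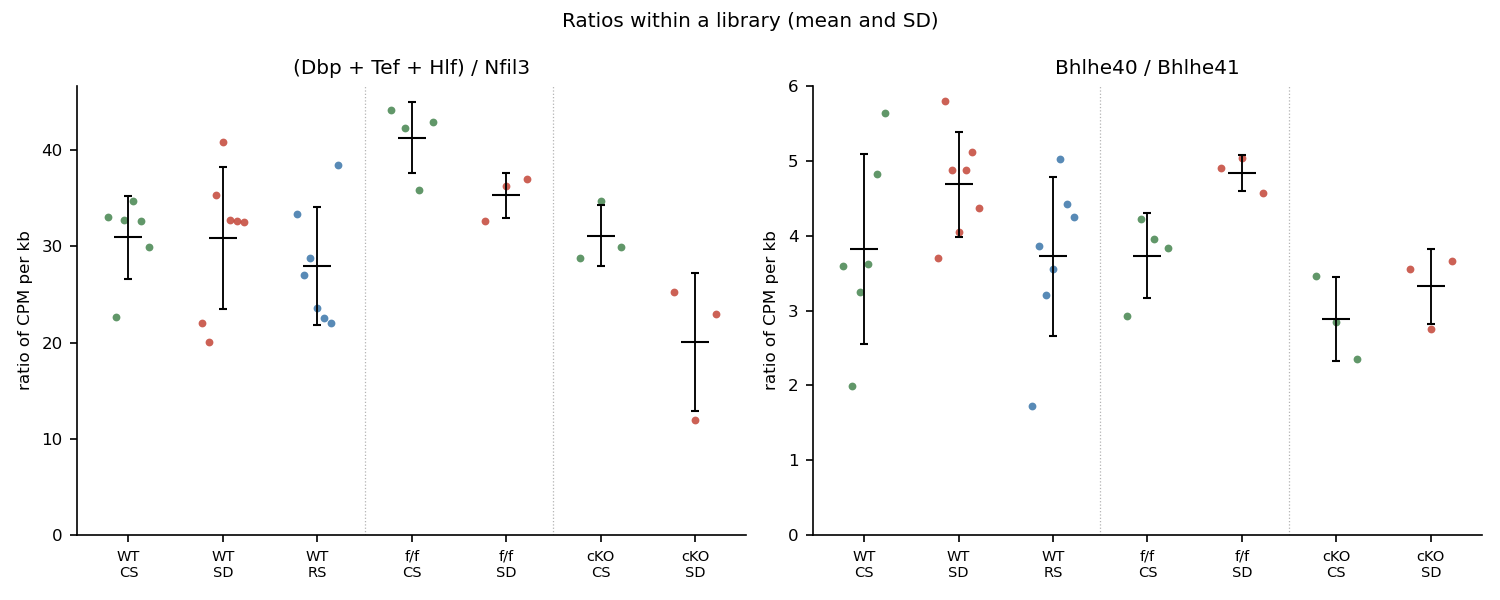
Ratios within each library (y axes, CPM per kb over CPM per kb, starting at 0) in the 7 groups (x axes), with points for libraries and bars for the mean and SD. On the left, the summed PAR bZIP activators over Nfil3 are lowest in Mef2c-cKO SD (mean 20.1); on the right, Bhlhe40 over Bhlhe41 has means from 2.89 to 4.84.

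Among the E-box repressors, Ciart, whose promoter window holds 3 E-boxes, was lower in Mef2c-cKO than in Mef2c f/f mice in both sleep states. In CS it was at 13.5, 17.7, 9.35 and 12.4 rescaled CPM in Mef2c f/f and at 8.59, 7.0 and 6.59 in Mef2c-cKO. In SD it was at 12.4, 8.35 and 8.85 in Mef2c f/f and at 6.77, 6.19 and 5.02 in Mef2c-cKO. The genotypes did not overlap in either state, as for 13.5% of all genes in CS and 18.7% in SD in that direction. The log2 fold change was -0.77 (SE 0.20, adjusted p = 0.0483) in CS and -0.66 (SE 0.17, adjusted p = 0.0305) in SD. With groups this small the calls depended on single libraries. Both were also lost without the filter on low values, and the CS call with CPM as deposited. The CS call was lost without Mef2c-cKO replicate 5, 7 or 8 or Mef2c f/f replicate 1, 2 or 4 (-0.88 to -0.63, adjusted p 0.0602 to 0.130), and was -0.70 without replicate 8, the library rich in glial markers. The SD call was lost without Mef2c-cKO replicate 7 or Mef2c f/f replicate 1 or 3 (-0.73 to -0.50, adjusted p 0.0720 to 0.0944), and kept without Mef2c-cKO replicate 6 (-0.69, adjusted p = 0.0171). Within genotypes, Ciart did not pass the test in any sleep comparison. In WT mice it was at 4.79, 8.23 and 9.71 in CS, at 6.15, 8.86 and 12.3 in SD and at 5.60, 7.91 and 10.9 in RS (log2 fold change from CS to SD 0.20, SE 0.17, adjusted p = 0.320, and 0.07 without WT CS replicate 2). From CS to SD the log2 fold change was -0.39 (SE 0.20, adjusted p = 0.349) in Mef2c f/f and -0.28 (SE 0.16, adjusted p = 0.998) in Mef2c-cKO, or -0.18 without Mef2c-cKO CS replicate 5.

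Bhlhe40, the E-box repressor known to respond to neuronal activity, had separate ranges in 2 comparisons of sleep states, although neither was called in limma. In WT mice it was at 44.3, 58.0 and 70.6 rescaled CPM in CS, at 58.9, 61.8 and 78.5 in SD and at 39.1, 51.0 and 53.8 in RS. Every RS library was below every SD library, 7 against 7, as for 0.108% of all genes tested. The log2 fold change from SD to RS was -0.39 (SE 0.08, 95% interval -0.57 to -0.21), larger in size than that of all but 2.17% of genes. Its adjusted p was 0.171 in limma, where few genes were called, and 0.0115 in DESeq2 (where 0.24% of all genes were called lower). The meningeal fibroblast sums separated the same groups (36.9 to 62.7 rescaled CPM in SD and 13.6 to 36.8 in RS), and the red blood cell sums were 93.9 to 279 and 83.0 to 136. From CS to SD it was 0.16 (SE 0.11, adjusted p = 0.207), or 0.09 without WT CS replicate 2, and from CS to RS -0.23 (SE 0.11, adjusted p = 0.118). In Mef2c f/f mice Bhlhe40 was at 47.6, 57.3, 47.2 and 47.1 in CS and at 69.5, 64.4 and 62.9 in SD. Those groups did not overlap either, as for 8.53% of all genes, and the log2 fold change was 0.40 (SE 0.09, adjusted p = 0.105 in limma and 0.0070 in DESeq2, where 1.53% of all genes were called higher). Marker sums that did not overlap between them were those of oligodendrocytes (1702 to 2040 in CS and 2276 to 2632 in SD), red blood cells (118 to 177 and 53.9 to 102) and meningeal fibroblasts (19.6 to 23.5 and 24.1 to 50.1). The part of these markers in the WT and Mef2c f/f values was not tested. In Mef2c-cKO mice it was at 50.7, 43.1 and 42.0 in CS and at 57.2, 59.8 and 46.1 in SD (log2 fold change 0.26, SE 0.12, adjusted p = 0.998). The difference between the last 2 responses was -0.14 (SE 0.15, adjusted p = 0.806), with a 95% interval from -0.47 to 0.19.

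Bhlhe41, the paralogue of Bhlhe40, gave no call in any comparison. In WT mice it was at 21.2, 33.5 and 43.8 rescaled CPM in CS, at 21.0, 26.3 and 41.7 in SD and at 20.9, 23.9 and 48.4 in RS, so a single group spanned more than the distance between groups. The log2 fold changes were -0.19 (SE 0.18) from CS to SD in WT, 0.02 (SE 0.11) in Mef2c f/f and 0.05 (SE 0.19) in Mef2c-cKO. The WT value was -0.09 without WT CS replicate 2, and the Mef2c-cKO value -0.15 without Mef2c-cKO SD replicate 6. Mef2c-cKO minus Mef2c f/f was 0.24 in CS (adjusted p = 0.256) and 0.27 in SD (adjusted p = 0.296). These were 0.15 without Mef2c-cKO CS replicate 8 and 0.07 without Mef2c-cKO SD replicate 6. The ratio of Bhlhe40 to Bhlhe41 per kb was 3.74 ± 0.565 (n = 4) in Mef2c f/f CS and 4.84 ± 0.241 (n = 3) in SD, against 2.89 ± 0.558 and 3.32 ± 0.497 (n = 3 each) in Mef2c-cKO.

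**Figure D4:**
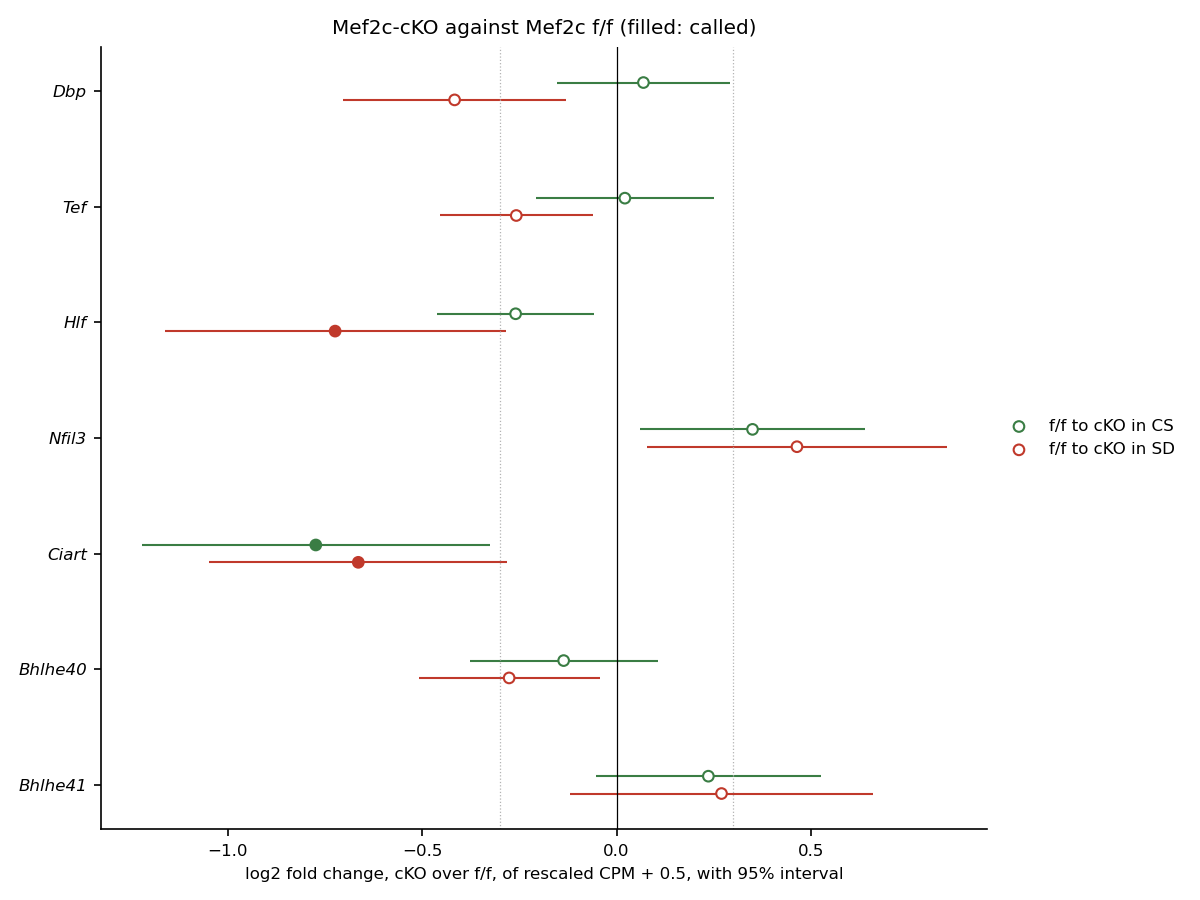
Log2 fold change of Mef2c-cKO over Mef2c f/f (x axis, of rescaled CPM + 0.5, with 95% intervals) for each gene (y axis) in CS (green) and SD (red); filled circles are DEGs. Ciart is below 0 in both states (-0.77 and -0.66), Hlf is called in SD (-0.72), and Nfil3 is above 0 in both (0.35 and 0.46).

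In SD the test called 2 of the 7 members between genotypes, and 6 had ranges that did not overlap between Mef2c-cKO and Mef2c f/f, where 40.3% of all genes tested did the same. Below Mef2c f/f were Hlf, Ciart, Dbp (-0.42, SE 0.13, adjusted p = 0.0536), Tef (-0.26, SE 0.09, adjusted p = 0.0734) and Bhlhe40 (-0.28, SE 0.10, adjusted p = 0.0952), and above it was Nfil3. Hlf and Ciart were called. Tef was at -0.17 without Mef2c-cKO SD replicate 6. Dbp was also called without Mef2c-cKO SD replicate 5 (-0.54, adjusted p = 0.0248) and by DESeq2 (adjusted p = 0.0134, with 7.44% of all genes called lower), but was at -0.28 (adjusted p = 0.0397), under the fold threshold, without Mef2c-cKO SD replicate 6. Bhlhe40 was called without that library (-0.35, adjusted p = 0.0217). In CS the ranges of 3 members did not overlap (26.9% of all genes), and Dbp (0.07) and Tef (0.02) had log2 fold changes near 0. The responses to SD were not shown to differ between these genotypes for any member (0 of 7 called in limma, edgeR and DESeq2, with 1 at an unadjusted p under 0.05, where all genes gave 0.00778% and 7.81%). Nor were the Mef2c f/f and WT responses (0 of 7 called in each tool, 1 at an unadjusted p under 0.05, where all genes gave 15.1% and 40%). Cell type markers differed between the same groups. In SD the excitatory neuron sum was 1806 to 1941 in Mef2c f/f and 1538 to 1740 in Mef2c-cKO, the inhibitory neuron sum 367 to 445 and 567 to 672, the astrocyte sum 594 to 645 and 779 to 962, and the microglia sum 144 to 151 and 180 to 196. In CS the astrocyte sum was 544 to 594 in Mef2c f/f and 714 to 2337 in Mef2c-cKO, and the microglia sum 132 to 152 and 159 to 419. Meningeal fibroblast sums (19.6 to 23.5 and 32.7 to 38.3), red blood cell sums (118 to 177 and 10.3 to 105) and endothelial sums (80.1 to 85.1 and 65.2 to 77.2) did not overlap in CS either. Their part in these results was not tested.

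The WT comparison moved with the scaling and with base composition. With CPM as deposited, the median of all genes from CS to SD was higher by 0.26 on the log2 scale, and by 0.18 from CS to RS. Dbp (0.61), Tef (0.71), Nfil3 (0.57) and Bhlhe40 (0.43) were then called higher in SD, as were 47.3% of all genes, while Hlf (0.24) and Bhlhe41 (0.08) changed sign and lay below the median of all genes on that scale (0.30). Across 12442 genes with an annotated transcript, the log2 fold change from CS to SD had a Spearman rho of 0.721 with GC content (genes are not independent replicates). When each library was corrected for smooth trends on GC content and transcript length, no member was called (20.5% of all genes). Nfil3 then had a log2 fold change of -0.02 (adjusted p = 0.914), Tef 0.23 (adjusted p = 0.190) and Dbp -0.32 (adjusted p = 0.142). Dbp, the member richest in GC, therefore changed sign with the correction, although it was called under neither setting. In the genotype comparison in SD, where rho was 0.241, the same correction left Ciart (-0.81) and Hlf (-0.71) called and added Dbp (-0.63, adjusted p = 0.0192), Tef (-0.33, adjusted p = 0.0255) and Bhlhe40 (-0.35, adjusted p = 0.0436), where 8.53% of all genes were called lower. Ciart in CS was at -0.91 (adjusted p = 0.0188, with 8.25% of all genes called lower). Bhlhe40 in Mef2c f/f CS to SD, at 0.43, was then called (adjusted p = 0.0419, with 0.589% called higher). Other measures separated the WT groups too. The summed meningeal fibroblast markers were 8.37 to 34.0 rescaled CPM in CS and 36.9 to 62.7 in SD, with no overlap, and the red blood cell markers 25.9 to 115 and 93.9 to 279. The striatal neuron markers (3 of 4 in the table) were at 74.3 to 155 and 139 to 309. Whether these bear on Tef and Nfil3 was not tested.

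**Figure D5:**
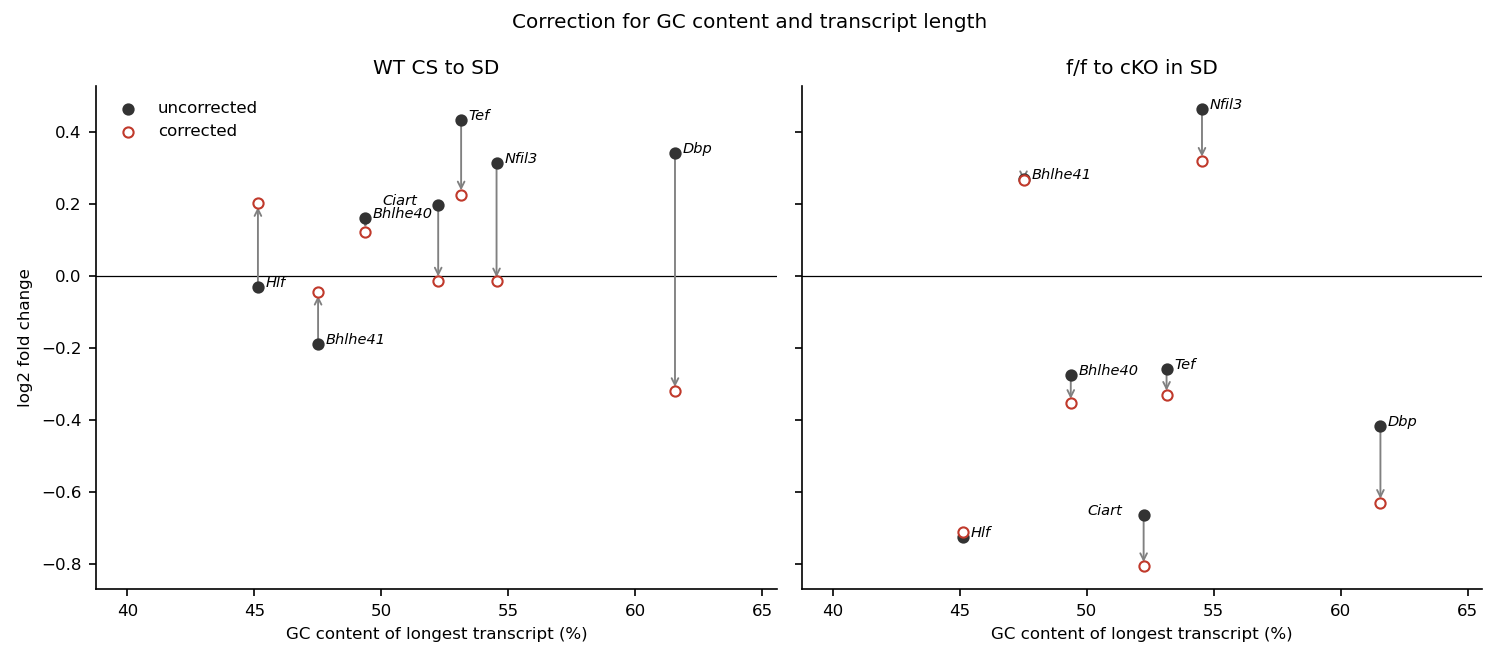
Log2 fold change (y axis) against the GC content of the longest transcript in percent (x axis) for the 7 genes, uncorrected (filled) and corrected for GC content and transcript length (open), joined by arrows, in WT CS to SD (left) and in Mef2c-cKO against Mef2c f/f in SD (right). Dbp, at 61.6% GC, moves from 0.34 to -0.32 on the left, whereas Ciart moves from -0.66 to -0.81 on the right.

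Other genes of the pathway were read from lists written from general knowledge, with earlier results of these data known, so their counts are descriptions. Of 16 core clock genes, 15 were tested (Per3 was not among the genes tested, with or without the filter on low values). From WT CS to SD, 3 rose, the repressors Per1 (0.61, adjusted p = 0.0123) and Per2 (0.57, adjusted p = 0.0013) and the kinase gene Csnk1d (0.40), and 6 fell. Those were Arntl (-0.34) and Clock (-0.51), which encode the activators that bind the E-box, their paralogues Arntl2 (-0.48) and Npas2 (-0.42), and the receptors Rora (-0.55) and Rorb (-0.89). Over the list, log2 fold changes had a median of -0.12, against 0.04 over all genes. Of all genes tested, 24.6% were called higher and 20.5% lower in this comparison. With CPM as deposited the split of the list was 5 higher and 1 lower (Rorb), and with the correction for GC content and length 1 higher (Per2) and 3 lower (Arntl, Npas2 and Rorb). With replicate number as a block it was 1 higher (Per2) and 1 lower (Rorb). Under these settings, in that order, the shares of all genes called higher and lower were 47.3% and 6.2%, 9.3% and 11.2%, and 1.23% and 0.991%. From CS to RS none rose and 3 fell (Arntl2, Rora and Rorb), against 4 higher and 1 lower with CPM as deposited and 0 and 1 with the correction. The main test called 9.28% of all genes higher and 8.22% lower there. In limma no core clock gene was called in WT SD to RS or from CS to SD in either of the other genotypes, while DESeq2 called Rorb higher and Npas2 lower in Mef2c f/f. Against Mef2c f/f, Mef2c-cKO mice had 3 lower in CS (Arntl -0.52, Npas2 -0.51 and Rora -1.08) and 5 lower in SD (Arntl2 -0.34, Nr1d1 -0.47, Nr1d2 -0.56, Rora -0.85 and Rorb -0.89), and none higher. The list medians were -0.23 in CS and -0.28 in SD. Of all genes tested, 4.5% were called lower in CS and 5.99% in SD, and 3.17% and 9.1% higher. With CPM as deposited 2 and 4 genes of the list were lower, with the correction 3 and 6, and none of the list was higher under either.

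D-box genes, the direct targets of the PAR bZIP factors and NFIL3, were Per1, Per2, Per3, Nr1d1, Nr1d2, Rora and Rorb, of which 6 were tested. From WT CS to SD, 2 rose and 2 fell, where 24.6% of all genes were called higher and 20.5% lower. With the correction for GC content and length, or with the replicate block, 1 rose (Per2) and 1 fell (Rorb). In Mef2c-cKO against Mef2c f/f, 1 was lower in CS and 4 were lower in SD (median log2 fold change -0.52, against 0.01 over all genes). All 4 genes lower in SD are also on the core clock list. Of 6 further output genes, 3 rose in WT SD (24.6% of all genes), Tsc22d3 (0.48), which glucocorticoids induce, Pdxk (0.67), a vitamin B6 kinase controlled by PAR bZIP factors, and Por (0.43). The same 3 rose in WT RS (9.28% of all genes). With the replicate block 0 of them were called in WT SD and all 3 in WT RS. Por changed sign in both comparisons with the correction for GC content and length. In Mef2c-cKO SD, Usp2 (-0.35) and Tsc22d3 (-0.44) were lower than in Mef2c f/f SD, but Usp2 was not called with CPM as deposited. From CS to SD in Mef2c f/f, Tsc22d3 was not called in the main test. It was called higher there in DESeq2, with the correction and with the replicate block. In DESeq2 its Mef2c-cKO response was also called lower than its Mef2c f/f response. Wee1 and Alas1 were not called in limma on rescaled CPM, but with CPM as deposited both were called higher in WT SD and Alas1 in WT RS. These lists are small and are described by their counts alone.

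Likeness was measured as the root-mean-square difference between 2 genes over 4 log2 fold changes (WT CS to SD, WT CS to RS, and CS to SD in the other genotypes), among 12072 genes tested in all 4. The gene most like Dbp was Oasl2 (0.0733), followed by Rnf213 (0.0974) and Fam46c (0.10). Nearest to Tef were Padi2 (0.0262), Poldip2 and Rnpep, and nearest to Hlf were Igfbp5 (0.0329), Spag5 and Epsti1. Nfil3 was closest to Arrdc2 (0.0357), Chga and Hbegf, and Ciart to Esrrb (0.0546), Plcd1 and Ggact. For Bhlhe40 they were Ccdc3 (0.0578), Tnc and Rnd3, and for Bhlhe41 Fam213a (0.0129), Mrpl48 and Morc2a. Among the members, Hlf and Bhlhe41 (0.208), Dbp and Ciart (0.228) and Dbp and Tef (0.246) were the closest pairs, and Dbp and Bhlhe40 (0.548) the most distant. None of the 3 PAR bZIP factors was among the nearest genes of another. With 12072 genes to choose from and only 4 values each, this cannot show whether they respond together. The first 2 of the 4 comparisons also share the WT CS libraries.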

How the data were processed

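Frontal cortex RNA from 33 mice was extracted by the authors with TRIzol and RNeasy and made into stranded mRNA libraries, which were sequenced on a NextSeq 500 as paired ends. After quality control (FASTQC) and trimming (Trimmomatic), the authors used STAR for alignment to mm10 and HTSeq to count reads with a unique position, and deposited CPM computed by edgeR. Versions and the gene annotation release are not given in the sources used here. The deposited CPM sum to 1000000 over listed genes in Mef2c f/f and Mef2c-cKO libraries and to less in WT libraries, so the WT totals include reads outside the listed genes. Whether WT was normalized separately is not stated in the sources used here. Labels give no batch, and nothing says more of replicates than that they are separate mice.

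Libraries were rescaled by median-of-ratios factors from 11570 genes, and log2 was taken after adding 0.5. Each comparison was fitted on its own groups with limma 3.58.1 in R 4.3.3 (lmFit, and eBayes with a trend), two-sided, for genes that reached a CPM of 1 in every replicate of 1 or more compared groups. Adjusted p-values are Benjamini-Hochberg over all genes tested. For interactions no fold threshold applied. Whole reads were recovered for 711645 of 711645 values (100%, within 0.01 of a whole number), and edgeR 4.0.16 (quasi-likelihood) and DESeq2 1.42.0, the tool of the study, were run on them as alternatives. From WT CS to SD edgeR called 5701 genes and DESeq2 6048. The analysis was repeated with a pseudocount of 0.1 or 1, with unscaled CPM, without the filter, with a minimum CPM of 5 in all libraries, with a correction per library for GC content (natural spline, 5 degrees of freedom) and log10 transcript length (4), with replicate number as a block, and leaving out single libraries. The code was tested on simulated data.

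GC content, length and position came from GENCODE M21 on GRCm38, in which 19256 symbols were found directly and 240 through a synonym, 26 of the genes were ambiguous and 2069 were not found. All 7 members were found. Promoter windows came from RefSeq. Replicates differed by more than counting noise (chi-square per degree of freedom 12.2 to 537 over 72 pairs of libraries). The genes named are the 7 members, 3 lists of clock genes, Mef2c, and for each member the 3 genes most like it. Some genes first placed on the core clock list are not reported here and were left out of its counts, without regard to their values. Members and lists were chosen with earlier results of these data known.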

Additional observations from a re-analysis of the deposited data

Results flagged for a closer look

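In 6 of 28 combinations of a member and a group, counting the groups of 4 to 7 libraries, 1 library stood farther from the rest than Dixon's 95% limit, which chance gives in about 1 group in 20. Tef was at 288 rescaled CPM in WT RS replicate 12, above 219 to 240 in the other WT RS libraries. Hlf was at 140 in WT SD replicate 3, above 98.1 to 112 in the rest of its group. In WT SD replicate 1 both E-box repressors were high, Bhlhe40 at 78.5 and Bhlhe41 at 41.7. Bhlhe40 was at 57.3 in Mef2c f/f CS replicate 2, where the other libraries of the group lay between 47.1 and 47.6. Bhlhe41 was at 48.4 in WT RS replicate 1.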

How the results depend on the processing

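From WT CS to SD, the 2 members called became 1 with a pseudocount of 1, 1 without the filter, 1 with a minimum CPM of 5, 4 with CPM as deposited (Bhlhe40, Dbp, Nfil3 and Tef), 0 with the GC content and length correction, and 0 with the replicate block. Nfil3 changed sign with the GC content and length correction (-0.0154). The 1 member called between genotypes in CS became 0 with CPM as deposited and 0 without the filter, and the 2 in SD became 0 without the filter and 5 with the GC correction. Members called rose from 0 to 1 with DESeq2 in WT SD to RS, in Mef2c f/f and in Mef2c-cKO, with the GC correction in Mef2c f/f, and with CPM as deposited in the Mef2c f/f minus WT response (Dbp). With a library left out, members called were 0 to 2 in WT CS to SD, 0 to 1 in WT CS to RS, 0 to 1 between genotypes in CS and 0 to 3 in SD, and 0 elsewhere.

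Counts over all genes moved more. With the GC correction they were 2552 in WT CS to SD (from 5824), 629 in WT CS to RS (from 2232), 7 in WT SD to RS (from 3), 117 in Mef2c f/f (from 5), 1485 between genotypes in CS (from 973), 5 in the Mef2c-cKO minus Mef2c f/f response (from 1) and 279 in the Mef2c f/f minus WT response (from 1983). With DESeq2 they were 3420 in WT CS to RS, 54 in WT SD to RS, 466 in Mef2c f/f, 25 in Mef2c-cKO (from 3), 2095 between genotypes in CS and 59 in the Mef2c-cKO minus Mef2c f/f response, and with edgeR 9 in Mef2c f/f. Without the filter they were 385 in WT CS to RS, 0 in WT SD to RS, 0 in Mef2c f/f, 6 in Mef2c-cKO and 1142 in the Mef2c f/f minus WT response. With a minimum CPM of 5 they were 0 in WT SD to RS, 12 in Mef2c f/f and 1280 between genotypes in SD (from 1927). With CPM as deposited they were 1 in WT SD to RS and 3426 in the Mef2c f/f minus WT response, and with a pseudocount of 1 they were 13 in Mef2c f/f. With a library left out they were 4509 to 6411 in WT CS to SD, 0 to 3740 in WT CS to RS, 0 to 9 in WT SD to RS, 0 to 590 in Mef2c f/f, 1 to 3 in Mef2c-cKO, 171 to 875 and 822 to 2447 between genotypes in CS and SD, 1 to 2 in the Mef2c-cKO minus Mef2c f/f response and 23 to 3300 in the Mef2c f/f minus WT response. The causes were not tested.

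The replicate block gave 287 genes in WT CS to SD (from 5824), 4279 in WT CS to RS (from 2232), 0 in WT SD to RS, 13 in Mef2c f/f, 1 in Mef2c-cKO, 3 in the Mef2c-cKO minus Mef2c f/f response and 0 in the Mef2c f/f minus WT response. Deviations of same-numbered libraries correlated at -0.329 to 0.554 for WT CS and SD, 0.0681 to 0.666 for WT CS and RS, -0.726 to 0.333 for WT SD and RS, 0.0467 to 0.265 in Mef2c f/f and 0.0689 to 0.15 in Mef2c-cKO. In none were all pairs over 0.1, so the numbers were not taken as pairs. All 6 pairs for WT CS and RS, and all in Mef2c f/f and Mef2c-cKO, were nonetheless above 0. This limit does not show that the mice were unpaired. Of the libraries with a shared number, 4 of 10, 4 of 12, 2 of 10 and 3 of 6 in the first 4 of these correlated best with their own number. In Mef2c-cKO, with only 2 shared numbers, 4 of 4 did. No block could be fitted between Mef2c f/f and Mef2c-cKO, which share no replicate numbers. Of 1235 values of members under alternatives, 54 changed sign, 53 of them where neither value was called. Each member had at least 94 reads in every library, and the largest counting error of a single value was 10.3%, for Nfil3.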
